A study of Mus musculus with 144 samples.

Results

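Microglia, the resident macrophages of the retina, sense nucleotides that leak from stressed or injured cells. The receptor P2Y12, encoded by P2ry12, and its relative P2Y13, encoded by P2ry13, bind ADP and are coupled to inhibitory G proteins, and P2Y12 draws microglial processes towards a site of injury. The A3 receptor, encoded by Adora3, binds adenosine and acts with P2Y12 on process movement. P2Y6, encoded by P2ry6, binds UDP and promotes phagocytosis. P2X4 and P2X7, encoded by P2rx4 and P2rx7, are cation channels opened by ATP, and P2X7 opening is a trigger of inflammasome assembly. CD39, the product of Entpd1, is a cell-surface enzyme that breaks ATP and ADP down to AMP and so removes the ligands of P2Y12, P2Y13, P2X4 and P2X7. The 7 genes were taken by symbol from the 55364 rows of the expression table, and all 7 were present.

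Expression was measured in single cells sorted from retinas of Iba1-EGFP mice aged 16 weeks, 1 library a cell. In this strain green fluorescent protein is driven by Iba1, a gene active in microglia and also in other macrophages. There were 54 cells from untreated mice, 54 from day 2 and 36 from day 4 after crush of the optic nerve, and the comparison asks how nucleotide sensing genes stood at these times. The reporter strain, age and tissue were common to the 3 groups. Cells from untreated mice were the only control used here, so the crush and the surgery around it cannot be told apart. No label names an animal, and the cells of a time point were therefore taken as 1 sample, with no replicate check and no test. Each of 3 plates held cells of all 3 time points in separate rows, so plate row and time point cannot be told apart.

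A median of 5.31 M reads (M, 1e+06) was assigned to genes in a cell, from 0.190 to 18.9 M. The median number of genes at 1 FPKM or more was 2793 at the untreated stage, 3473 at day 2 and 3965 at day 4. This count was thus higher at later times, and fits that include it cannot fully separate the count from the time point. FPKM is the number of fragments per kilobase of exons and 1e+06 assigned reads. The length used is that of a gene's annotated exons, 7025 bases for P2rx4 and 2546 for P2ry12. Levels of different genes therefore depend on this length, and which transcripts the cells used was not tested. At least 3 of 10 microglial markers were at 20 FPKM or more in 54 of 54 untreated, 54 of 54 day 2 and 35 of 36 day 4 cells. At least 3 markers of border macrophages, monocytes or rods reached that level in 7 untreated, 8 day 2 and 2 day 4 cells. Values without these 17 cells are given for the printed differences of the 7 purinergic genes, on the mean of log2(FPKM + 1), that changed sign or moved by over 1.5 times. No such values are given for other single genes. The summed level of the 8 border macrophage markers had a median of 4.47 FPKM in untreated cells, 3.8 FPKM at day 2 and 2.33 FPKM at day 4, with highest sums of 5986, 6062 and 3590 FPKM, and Cd209f was listed at 0 throughout.

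The genes lie in a few places of the mouse genome, here given on GRCm38. P2ry13 (ENSMUSG00000036362, chr3:59207892-59210882) and P2ry12 (ENSMUSG00000036353, chr3:59216272-59262871) are neighbours on the minus strand of chromosome 3, 5389 bases apart. Adora3 (ENSMUSG00000000562, chr3:105870858-105908926) is on the plus strand of the same chromosome. P2rx7 (ENSMUSG00000029468, chr5:122643911-122691432) and P2rx4 (ENSMUSG00000029470, chr5:122707544-122729738) are neighbours on the plus strand of chromosome 5, with 16111 bases between them. P2ry6 (ENSMUSG00000048779, chr7:100937630-100974649) is on the minus strand of chromosome 7. Entpd1 (ENSMUSG00000048120, chr19:40612366-40741602) is on the plus strand of chromosome 19.

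Promoter sequences from RefSeq on GRCm38.p6, from 250 bases before to 50 bases after a gene's start, were available for 6 of the 7 genes in 8 windows. The 5 windows of the neighbouring pairs are shown because the motility receptors and the channels are compared throughout. Capitals mark matches to the PU.1 core GAGGAA or the AP-1 site TGANTCA on either strand, and no matches overlapped.
P2ry12 (chr3:59262936-59263235, minus strand): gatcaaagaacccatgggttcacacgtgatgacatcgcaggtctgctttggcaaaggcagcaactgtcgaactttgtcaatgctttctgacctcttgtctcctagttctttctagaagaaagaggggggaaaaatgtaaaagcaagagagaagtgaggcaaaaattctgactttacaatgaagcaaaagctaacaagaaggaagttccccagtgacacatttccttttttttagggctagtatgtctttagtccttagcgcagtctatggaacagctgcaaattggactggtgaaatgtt
P2ry13 (chr3:59210833-59211132, minus strand): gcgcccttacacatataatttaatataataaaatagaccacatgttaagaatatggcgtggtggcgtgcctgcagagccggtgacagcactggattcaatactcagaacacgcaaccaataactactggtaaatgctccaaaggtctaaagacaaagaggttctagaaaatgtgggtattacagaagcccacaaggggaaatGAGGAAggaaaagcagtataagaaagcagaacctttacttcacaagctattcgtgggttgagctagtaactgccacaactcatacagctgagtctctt
P2rx7 (chr5:122643677-122643976, plus strand): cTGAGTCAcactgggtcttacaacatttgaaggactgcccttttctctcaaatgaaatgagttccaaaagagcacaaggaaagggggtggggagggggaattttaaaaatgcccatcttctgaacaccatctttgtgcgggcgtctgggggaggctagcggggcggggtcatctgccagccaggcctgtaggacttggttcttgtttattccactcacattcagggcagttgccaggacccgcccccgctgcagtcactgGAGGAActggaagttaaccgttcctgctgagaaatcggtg
P2rx7, second start (chr5:122650133-122650432, plus strand): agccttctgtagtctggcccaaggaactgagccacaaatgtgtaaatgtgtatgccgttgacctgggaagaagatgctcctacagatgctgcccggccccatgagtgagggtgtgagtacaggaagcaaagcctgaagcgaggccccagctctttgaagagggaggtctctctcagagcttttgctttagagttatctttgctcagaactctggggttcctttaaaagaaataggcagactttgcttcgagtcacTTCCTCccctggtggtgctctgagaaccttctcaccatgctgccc
P2rx4 (chr5:122707294-122707593, plus strand): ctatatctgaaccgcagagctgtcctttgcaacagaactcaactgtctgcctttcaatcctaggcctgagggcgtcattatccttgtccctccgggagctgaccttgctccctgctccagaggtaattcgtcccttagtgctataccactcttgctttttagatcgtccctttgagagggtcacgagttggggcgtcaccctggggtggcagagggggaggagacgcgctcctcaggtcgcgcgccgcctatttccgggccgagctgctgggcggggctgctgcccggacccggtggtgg
PU.1 is a transcription factor of myeloid cells, and AP-1 is formed by Fos and Jun proteins. The PU.1 core was found in 5 of the 8 windows, against 28.3% of 32851 RefSeq promoters of the same length. It lay 48 bases before the start of P2ry13 and 10 and 5 bases after the starts of P2rx7, and these letters were not found in the P2ry12 or P2rx4 windows. An AP-1 site was found in 2 of the 8 windows, those of Adora3 and the first start of P2rx7, against 7.81% of promoters. The interferon regulatory factor element GAAANNGAA was in 0 of the 8 windows, against 8.56% of promoters.

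Over all cells P2ry12 had the highest mean, 615 FPKM, above the means of 98.8% of the 8679 measured genes. A gene was called measured when it reached 1 FPKM in at least 10% of cells, and all 7 genes did. P2ry13 followed at 228 FPKM, P2ry6 at 61.7 FPKM and Entpd1 at 35.8 FPKM. The channels were lower, P2rx4 at 17.5 FPKM and P2rx7 at 14.7 FPKM, and Adora3 was lowest at 4.98 FPKM. By mean reads, which take no account of length, Entpd1 (1437) lay above P2ry6 (1091), and the rest of the order was the same. The spread between cells was wide at every time point, and P2rx4 and P2rx7, neighbours in this order, differed by less than that spread. In untreated cells P2rx4 was at 18.1 ± 46.5 FPKM and P2rx7 at 21.2 ± 53.2 FPKM (SD, n = 54 cells each), the reverse of their order over all cells.

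Single cells fell into high and low values rather than around a common level. P2ry12 was at 20 FPKM or more in 115 cells of the 3 groups together, P2ry13 in 84, P2ry6 in 74, Entpd1 in 48, P2rx4 in 35, P2rx7 in 29 and Adora3 in 12. The low values moved with each gene's own mean. In the 29 cells under 20 FPKM for P2ry12 the median was 7.88 FPKM, which is 1.28% of its mean over all cells. In the 109 cells under 20 FPKM for P2rx4 the median was 0.206 FPKM, or 1.17% of its mean. Over the 7 genes this share lay between 0.810% and 1.58%, and over 2536 measured genes with a mean of at least 20 FPKM its median was 1.12%. Values at that level are not read here as expression, and shares of cells are given at 20 FPKM, the same cut for every gene. For P2rx4, P2rx7 and Adora3 this cut also leaves out values between 1 and 20 FPKM, which lie above the low level of those genes. Passage of reads between libraries was not tested.

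**Figure D1:**
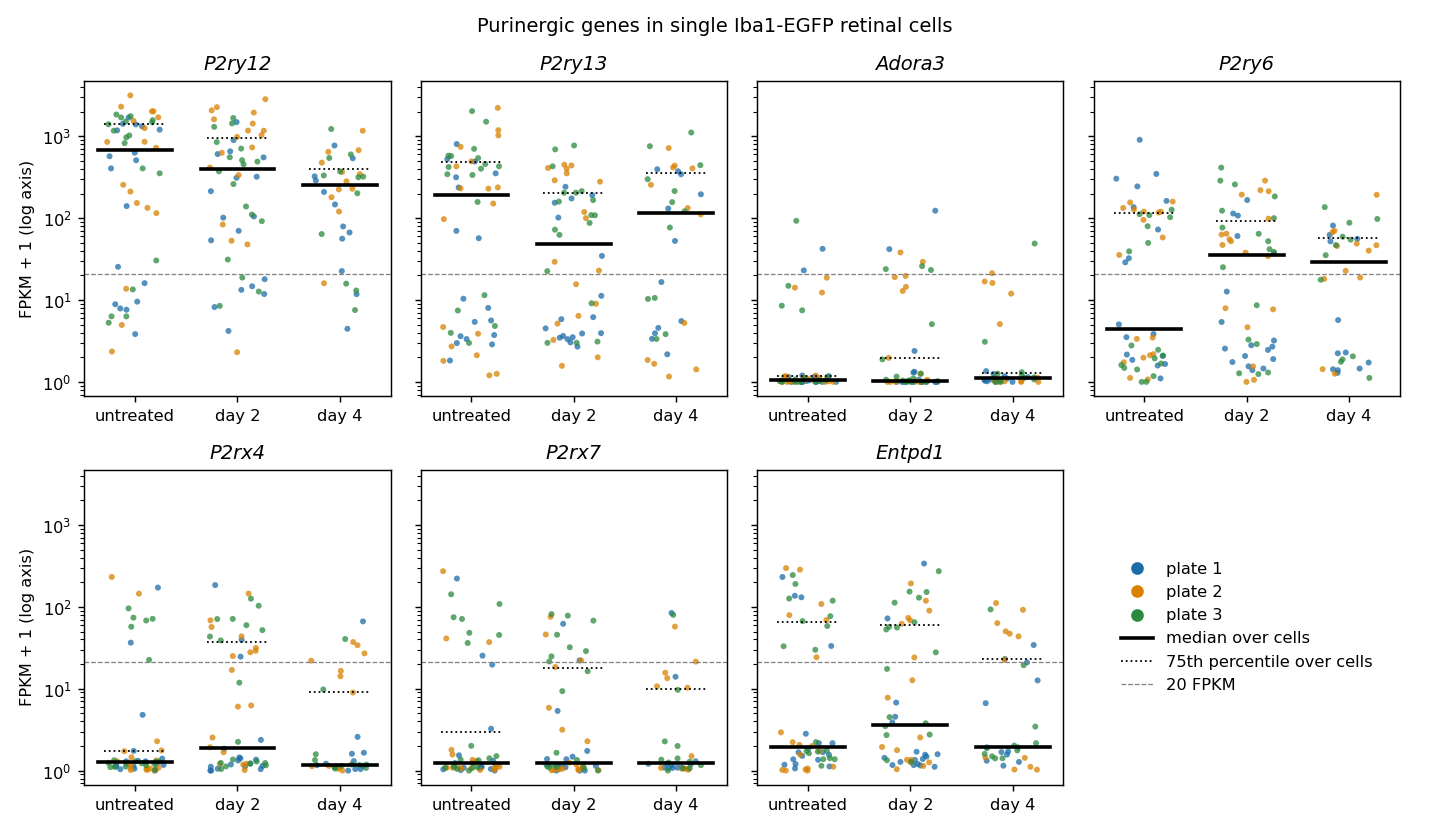
FPKM + 1 of each purinergic gene in each cell on a log axis, by time point, with points coloured by plate, the median as a thick bar, the 75th percentile as a dotted bar and 20 FPKM as a dashed line. P2ry12 and P2ry13 have most cells above the dashed line at each time point, P2rx4, P2rx7 and Adora3 few, and the top of the P2ry12 cloud is lower at day 4 (75th percentile 398 FPKM) than in untreated cells (1417 FPKM).

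The process-motility receptor P2ry12 had lower upper values at day 4 than in untreated cells. Its lowest, median and highest values were 1.35, 677 and 3166 FPKM in untreated cells, 1.30, 394 and 2842 FPKM at day 2, and 3.45, 254 and 1229 FPKM at day 4. The ranges overlapped. The 75th percentile was 1417 FPKM in untreated cells, 962 FPKM at day 2 and 398 FPKM at day 4, while the 25th percentile was 25.7, 56.8 and 65.2 FPKM in that order of time. Over all cells the values thus drew together: the SD of log2(FPKM + 1) was 3.22, 2.7 and 2.16 over the same series. That SD was lower at day 2 and day 4 than in untreated cells in each plate. The 25th percentile was higher at both later times in plates 1 and 2, but in plate 3 it was 110, 95.6 and 50.9 FPKM. Both measures include the low values described above. The share of cells at 20 FPKM or more was not lower after crush, with 41 of 54 untreated cells (75.9%, exact 95% interval 62.4% to 86.5%), 44 of 54 at day 2 (81.5%, 68.6% to 90.7%) and 30 of 36 at day 4 (83.3%, 67.2% to 93.6%).

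The mean of P2ry12 was 312 ± 305 FPKM at day 4 (SD, n = 36 cells), against 814 ± 777 FPKM in untreated cells (SD, n = 54 cells), 2.61-fold lower. It was lower in each plate. In plate 1 the means were 209 FPKM at day 4 and 586 FPKM in untreated cells, in plate 2 they were 394 and 963 FPKM, and in plate 3 they were 334 and 894 FPKM. On the log2 of the mean FPKM + 1 the difference was -1.38, with -1.48, -1.29 and -1.42 in plates 1, 2 and 3, and it stayed between -1.51 and -1.30 when each of the 90 cells was left out in turn. On the 75th percentile of log2(FPKM + 1) it was -1.84, with -2.01, -1.69 and -1.88 in the plates, below the differences of all but 0.484% of measured genes. On the mean of log2(FPKM + 1) over cells, which gives the low values more weight, the difference was -0.62, with -0.61, -0.23 and -1.02 in the plates, below all but 1.66% of genes. With the count of detected genes in the fit it was -1.75, with -1.48, -2.10 and -1.64 in the plates. Day 2 lay between: on the mean of log2(FPKM + 1) it differed from untreated cells by -0.14 (-0.04 without the 17 cells that held other markers), lower in 2 plates and higher in plate 2, and day 4 differed from day 2 by -0.48, lower in 3 of 3 plates (-0.02, -0.86 and -0.56). Of the P2ry12 values 43.1% were not whole reads, and 9 of its 2546 exon bases are shared with Med12l on the other strand.

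P2ry13 was lower at day 2. Its lowest, median and highest values were 0.203, 193 and 2228 FPKM in untreated cells, 0.572, 47.6 and 772 FPKM at day 2, and 0.162, 115 and 1112 FPKM at day 4. The ranges overlapped, and the day 2 median was the lowest of the 3. The mean was 133 ± 180 FPKM at day 2 and 342 ± 487 FPKM in untreated cells (SD, n = 54 cells each), 2.58-fold lower. On the log2 of the mean FPKM + 1 the difference was -1.36, with -1.61, -1.27 and -1.36 in plates 1, 2 and 3, and between -1.50 and -1.20 with each of the 108 cells left out in turn. On the mean of log2(FPKM + 1) it was -0.81, with -1.0, -0.33 and -1.09 in the plates, below the differences of all but 0.311% of measured genes. With the count of detected genes in the fit it was -1.81, lower in 3 of 3 plates.

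At day 4 the difference of P2ry13 from untreated cells was smaller and mixed on the mean of log2(FPKM + 1), -0.43 with 0.24, -0.60 and -0.93 in the plates. With the count of detected genes in the fit, which had the highest rho with P2ry13 of the 7 genes (0.46), it was larger and of one sign, -2.29 with -1.22, -5.45 and -1.83 in the plates. In plate 2 the median count was 3172 in untreated cells and 5068 at day 4, so the -5.45 there depends on how the count is fitted. The mean of P2ry13 at day 4 was 200.0 ± 259 FPKM (SD, n = 36 cells), against 133 FPKM at day 2. The share of cells at 20 FPKM or more hardly moved, with 32 of 54 untreated cells (59.3%), 31 of 54 at day 2 (57.4%) and 21 of 36 at day 4 (58.3%), while the 75th percentile was 483, 200.3 and 351 FPKM over the same series.

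Adora3 was scarce. It reached 20 FPKM in 3 of 54 untreated cells (5.56%, 1.2% to 15.4%), 7 of 54 at day 2 (13%, 5.37% to 24.9%) and 2 of 36 at day 4 (5.56%, 0.680% to 18.7%), and the intervals overlap. Its median was 0.0458 FPKM in untreated cells, 0.0396 FPKM at day 2 and 0.106 FPKM at day 4, and its highest value was 91.9, 122 and 48 FPKM in that order. Of its values above 0, 63.3% were not whole reads, and 670 of its exon bases are shared with Tmigd3 on the same strand, so that reads from these bases fit either gene.

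P2ry6, the receptor that promotes phagocytosis, split by plate. Its lowest, median and highest values were 0, 3.45 and 907 FPKM in untreated cells, 0, 34.7 and 414 FPKM at day 2, and 0.117, 28.1 and 192 FPKM at day 4. The ranges overlapped, and it was at 20 FPKM or more in 26 of 54 untreated cells (48.1%), 29 of 54 at day 2 (53.7%) and 19 of 36 at day 4 (52.8%). On the mean of log2(FPKM + 1) day 4 differed from untreated cells by 0.05, with -1.59, 0.48 and 1.24 in plates 1, 2 and 3, and by 0.40 without the 17 cells that held other markers. Day 2 differed by 0.38, with -1.43, 0.64 and 1.93 in the plates. Plate 1 was thus lower and plates 2 and 3 higher at both times, and the untreated cells of plate 1 held the highest value, 907 FPKM, and a mean of 124 FPKM against 34.5 FPKM in those of plate 3. The 75th percentile was lower at day 4 in 3 of 3 plates, 55.8 FPKM over all cells of day 4 against 115 FPKM in untreated cells.

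The channel P2rx4 was higher at day 2 and lower again at day 4 over all cells, and the size of the day 2 difference depended on the scale and the cells kept. Its lowest, median and highest values were 0, 0.256 and 231 FPKM in untreated cells, 0, 0.889 and 184 FPKM at day 2, and 0, 0.186 and 65.5 FPKM at day 4. Most cells of each group were under 20 FPKM and the ranges overlapped. There were 10 cells of 54 at 20 FPKM or more in untreated mice (18.5%, 9.25% to 31.4%), 19 of 54 at day 2 (35.2%, 22.7% to 49.4%) and 6 of 36 at day 4 (16.7%, 6.37% to 32.8%). The median of these high cells was 71.6 FPKM in untreated mice, 51 FPKM at day 2 and 34.6 FPKM at day 4. Day 2 thus had more high cells than either other time, while untreated cells and cells of day 4 had a like share of them, at a lower level at day 4. The mean was 7.58 ± 15 FPKM at day 4 (SD, n = 36 cells) and 18.1 FPKM in untreated cells, 2.39-fold lower.

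On the mean of log2(FPKM + 1) P2rx4 was 1.06 higher at day 2 than in untreated cells, with 0.20, 2.04 and 0.93 in the plates, and 1.04 lower at day 4 than at day 2 (a difference of -1.04, with -0.41, -0.57 and -2.14). Both values are close to the size rule of 1 and lose the call easily: leaving out any of 11 of 108 cells brings the first under 1, and any of 19 of 90 cells the second. Without the 17 cells that held markers of border macrophages, monocytes or rods the day 2 difference was 0.55 (-0.15, 1.69 and 0.24 in the plates) and that of day 4 against day 2 was -0.46. The part of those cells in the result was not tested further. With the count of detected genes in the fit the day 2 difference was 0.49, with 0.19, 1.67 and -0.31 in the plates. That of day 4 against day 2 was then -1.48, lower in 3 of 3 plates. On the log2 of the mean FPKM + 1 the day 2 difference was 0.36, higher in 3 of 3 plates. At day 4 P2rx4 differed from untreated cells by 0.02 (0.09 without those 17 cells), higher in plate 2 (1.47) and lower in plates 1 and 3 (-0.21 and -1.21).

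P2rx7, the other channel, had its highest values in untreated cells. Its lowest, median and highest values were 0, 0.236 and 272 FPKM in untreated cells, 0, 0.225 and 80.6 FPKM at day 2, and 0, 0.235 and 83.3 FPKM at day 4. The medians lay at the level of the low values described above, and the ranges overlapped. It reached 20 FPKM in 12 of 54 untreated cells (22.2%, 12% to 35.6%), 13 of 54 at day 2 (24.1%, 13.5% to 37.6%) and 4 of 36 at day 4 (11.1%, 3.11% to 26.1%). At 1 FPKM or more there were 15 (27.8%), 20 (37%) and 11 cells (30.6%). The day 4 share was thus under that of untreated cells at 20 FPKM but not at 1 FPKM. The mean was 8.7 ± 20.6 FPKM at day 4 (SD, n = 36 cells) and 21.2 FPKM in untreated cells, 2.43-fold lower, and 12.1 ± 22.4 FPKM at day 2 (n = 54 cells). On the log2 of the mean FPKM + 1 the difference at day 4 was -1.19, with -0.80, -0.86 and -1.80 in the plates, and that at day 2 was -0.75, lower in 3 of 3 plates. The untreated means of plates 1 and 2, 14.9 and 19.5 FPKM, came mostly from 1 cell each, at 221 and 272 FPKM. The 75th percentiles there were 0.484 and 0.517 FPKM, so the sign in these plates rests on those cells. With each cell left out in turn the pooled day 4 difference lay between -1.55 and -0.85. The mean of log2(FPKM + 1) differed by 0.11 at day 2 and by -0.22 at day 4 from untreated cells (-0.10 and -0.05 without the 17 cells that held other markers), and at day 4 plate 2 was higher (0.91) where plates 1 and 3 were lower (-0.16 and -1.41). Of its exon bases 119 are shared with the microRNA gene Mir8115 on the same strand.

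Entpd1, which encodes the enzyme that removes ATP and ADP, was at 0, 0.928 and 297 FPKM (lowest, median and highest) in untreated cells, 0.0376, 2.64 and 337 FPKM at day 2, and 0.0257, 0.923 and 110 FPKM at day 4. The ranges overlapped, with 19 of 54 untreated (35.2%), 19 of 54 day 2 (35.2%) and 10 of 36 day 4 cells (27.8%) at 20 FPKM or more. The mean was 17.8 ± 29.7 FPKM at day 4 (SD, n = 36 cells), against 43.4 ± 77.7 FPKM in untreated cells (SD, n = 54 cells). On the mean of log2(FPKM + 1) the difference at day 4 was -0.32, with 0.04, 0.89 and -1.88 in the plates. It was -0.17 without the 17 cells that held other markers, and -1.44 with the count of detected genes in the fit, then lower in 3 of 3 plates (-0.82, -0.97 and -2.49). In plate 3 alone 1 of 12 cells of day 4 was high, against 9 of 18 untreated cells, while in plate 2 there were 7 of 12 and 6 of 18.

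**Figure D2:**
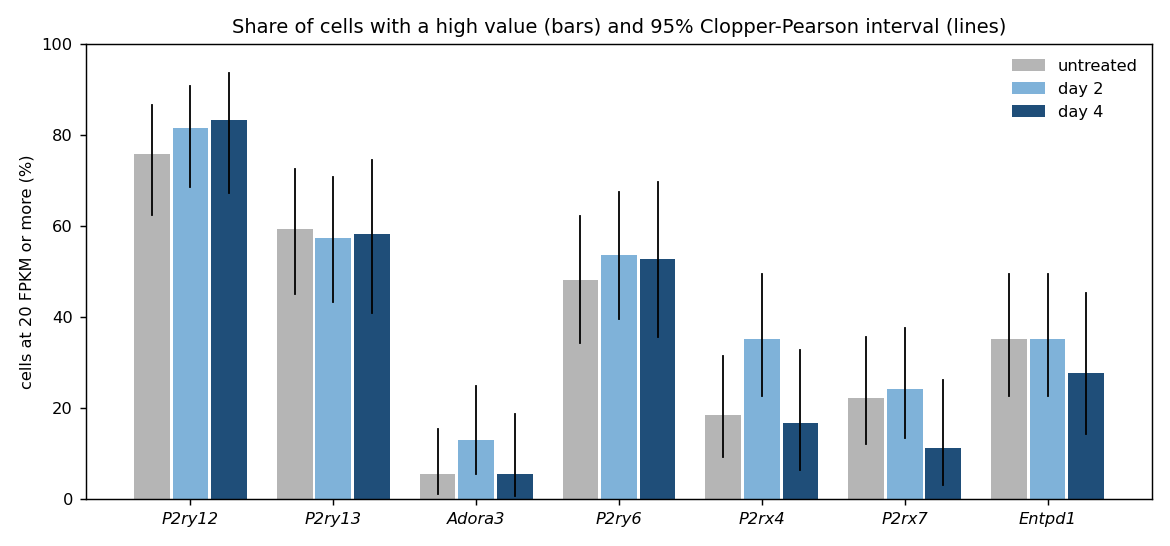
Share of cells at 20 FPKM or more for each purinergic gene at each time point, with exact 95% Clopper-Pearson intervals that cover counting error only. The intervals of the 3 time points overlap for every gene, and the P2rx4 bar stands higher at day 2 (35.2%) than in untreated cells (18.5%) and at day 4 (16.7%).

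Across the 7 genes the size rule, a difference of at least 1 on the mean of log2(FPKM + 1) with the same sign in 3 of 3 plates, was passed by 1 gene at day 2 against untreated cells, P2rx4, which was higher. Among measured genes 3.89% were higher and 0.0576% lower by that rule. At day 4 against untreated cells 0 of 7 passed in either direction, where 18.9% of measured genes were higher and 0.346% lower. At day 4 against day 2, 0 of 7 were higher and P2rx4 was lower, where 9.57% of measured genes were higher and 0.864% lower. The median measured gene was 0.21 higher at day 2 and 0.45 higher at day 4 than in untreated cells, and 0.25 higher at day 4 than at day 2. The median differences of the 7 genes in the same comparisons were 0.27, -0.22 and -0.34. At day 4 all 7 lay under the median measured gene in the comparison with untreated cells.

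The count depends on the scale. On the log2 of the mean FPKM + 1, where high cells weigh most, 4 of 7 genes were lower by the size rule at day 4 against untreated cells, where 6.08% of measured genes were. These were P2ry12 (-1.38), Entpd1 (-1.24), P2rx7 (-1.19) and P2rx4 (-1.16). The calls of P2rx4, P2rx7 and Entpd1 were lost when any of 3, 2 and 2 of the 90 cells was left out, and that of P2ry12 with none. At day 2 P2ry13 alone was lower on this scale, where 5.58% of genes were, and at day 4 against day 2 P2rx4 (-1.52) and Entpd1 (-1.13) were lower, where 6.1% were. Leaving out 1 of the 90 cells ended the P2rx4 call, and any of 14 ended that of Entpd1, which had -1.45, -0.02 and -2.50 in the plates.

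On the 75th percentile over cells, a scale added after the values had been seen, P2ry12 and P2ry6 (-1.03) were lower and 0 of 7 higher at day 4 against untreated cells, where 1% of measured genes were lower and 22.7% higher. At day 2 P2ry13 (-1.27) was lower and P2rx4 (4.41) higher, where 0.726% of genes were lower and 7.36% higher. At day 4 against day 2 P2ry12 (-1.28) and P2rx4 (-2.01) were lower and 0 of 7 higher, where 2.12% and 14.2% of genes were. The 75th percentile of P2rx4 falls between its low and high cells, so its difference there marks the number of high cells and not their level.

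**Figure D3:**
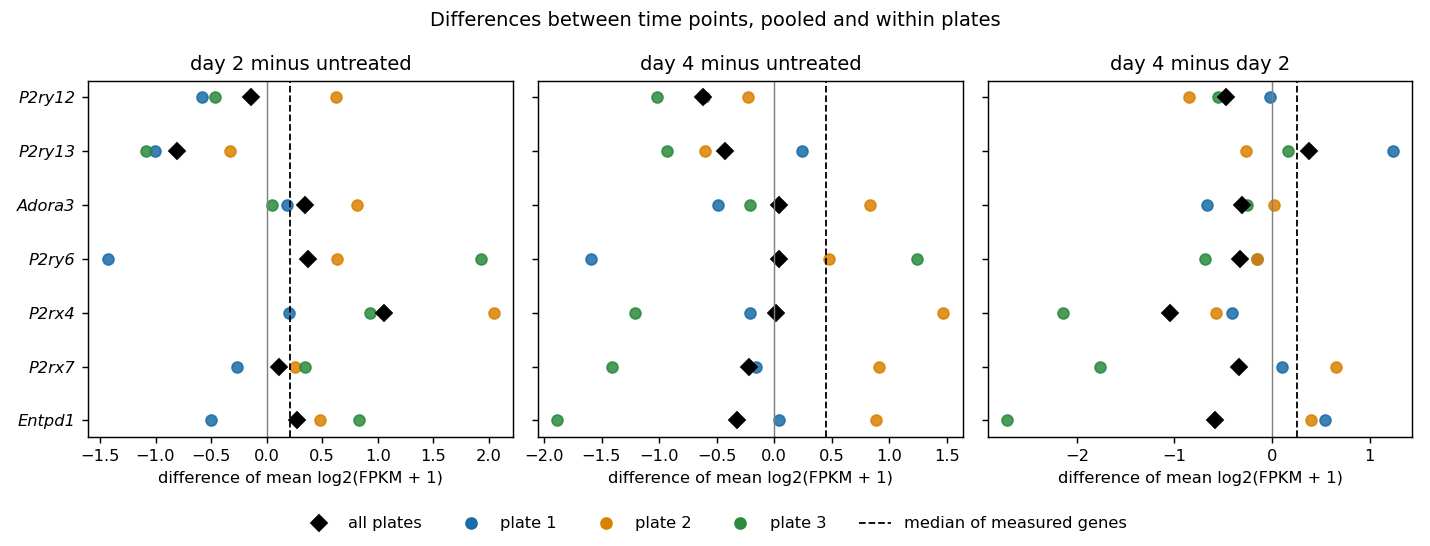
Difference of the mean of log2(FPKM + 1) between time points for each purinergic gene, over all plates (black diamonds) and in each plate (coloured points), with the median of 8679 measured genes as a dashed line. At day 4 against untreated cells all 7 diamonds lie left of the dashed line (0.45), and for P2rx4, P2rx7 and Entpd1 the points of plates 2 and 3 lie on opposite sides of 0.

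High values of the motility pair without a high channel were common, and the reverse was rare. Of all cells P2ry12 was high in 79.9% and P2ry13 in 58.3%, against 24.3% for P2rx4 and 20.1% for P2rx7. Unequal shares of this size give such a split even between unrelated genes, so it is not read as a link between the pairs. P2ry12 or P2ry13 was at 20 FPKM or more with neither P2rx4 nor P2rx7 there in 26 of 54 untreated, 26 of 54 day 2 and 21 of 36 day 4 cells, and a channel was high with neither motility receptor in 2, 1 and 0 cells of the same groups. Both pairs had a high gene in 17, 22 and 9 cells, and neither had one in 9, 5 and 6. The balance within a cell was taken as the log2(FPKM + 1) of P2ry12 and P2ry13 averaged, minus that of P2rx4 and P2rx7 averaged. Since the low values of the motility pair are higher, a balance above 0 does not show that a cell expressed either gene, and only differences between times are read. It averaged 5.35 ± 3.32 in untreated cells (SD, n = 54), 4.29 ± 2.46 in cells of day 2 (n = 54) and 4.93 ± 2.36 in cells of day 4 (n = 36). At day 2 it was 1.06 lower than in untreated cells (-1.06, with -0.76, -1.0 and -1.41 in the plates), with P2ry13 lower and P2rx4 higher, and -0.69 without the 17 cells that held other markers. At day 4 the difference from untreated cells was -0.42, with 0.00, -1.60 and 0.34 in the plates, which have no common sign.

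Against the phagocytic receptor, P2ry12 was high without P2ry6 in 18 of 54 untreated, 18 of 54 day 2 and 13 of 36 day 4 cells, and P2ry6 without P2ry12 in 3, 3 and 2. Of all cells P2ry12 was high in 79.9% and P2ry6 in 51.4%, so this split too is not read as a link. The mean of P2ry12 minus P2ry6 was 4.14 ± 4.12, 3.63 ± 3.54 and 3.48 ± 2.85 in untreated, day 2 and day 4 cells. The day 4 difference from untreated cells, -0.66, was 0.98, -0.71 and -2.26 in the plates. Inside the motility pair, P2ry12 minus P2ry13 was higher at day 2 than in untreated cells in 3 of 3 plates (0.67 over all cells) and lower at day 4 than at day 2 in 3 of 3 plates (-0.85). Without the 17 cells that held other markers plate 1 turned at day 2, with -0.84 for P2ry12 and -0.43 for P2ry13. With the count of detected genes in the fit plate 2 turned for day 4 against day 2, with -0.59 for P2ry12 and -1.78 for P2ry13. P2ry12 was high without P2ry13 in 11 untreated, 17 day 2 and 9 day 4 cells, and P2ry13 without P2ry12 in 2, 4 and 0. Inside the channel pair, P2rx4 minus P2rx7 was 0.94 higher at day 2 than in untreated cells, in 3 of 3 plates. Without the 17 cells that held other markers plate 3 turned, with 0.24 for P2rx4 and 0.38 for P2rx7. P2rx4 was high without P2rx7 in 7 untreated, 10 day 2 and 5 day 4 cells, and P2rx7 without P2rx4 in 9, 4 and 3.

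**Figure D4:**
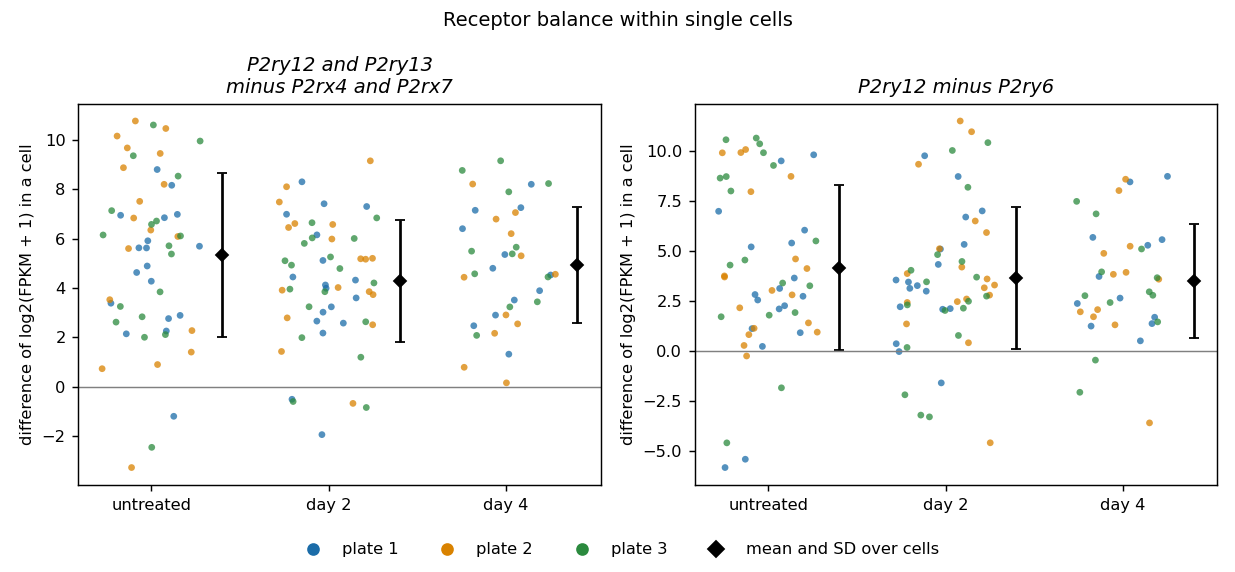
Difference of log2(FPKM + 1) within each cell, P2ry12 and P2ry13 averaged minus P2rx4 and P2rx7 averaged on the left and P2ry12 minus P2ry6 on the right, by time point, with points coloured by plate and the mean and SD over cells as a black diamond and bar. The height above 0 includes the unequal low values of the genes, and on the left the SD over cells is 3.32 without treatment, 2.46 at day 2 and 2.36 at day 4.

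P2ry12 was at 20 FPKM or more in 79.9% of all cells and P2ry13 in 58.3%, so that high values of other genes fall together with theirs often. Of 84 cells with P2ry13 at that level, 78 also had P2ry12. Of 48 cells with high Entpd1, 46 had high P2ry12 and 39 high P2ry13. A median of 3 of the 7 genes was high in a cell at each time point. None of the 7 genes was high in 8 of 54 untreated, 5 of 54 day 2 and 4 of 36 day 4 cells.

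Over the 54, 54 and 36 cells together, with the mean of each plate and time point subtracted, P2ry12 and P2ry13 had a Spearman rho of 0.40, P2ry13 and Entpd1 0.39, and Adora3 and Entpd1 0.35. P2ry12 with P2rx4 was at -0.02 and with P2rx7 at -0.04. P2rx4 with P2rx7, which are neighbours as P2ry12 and P2ry13 are, was at 0.17. The order of these neighbouring pairs changed with time. In untreated, day 2 and day 4 cells taken apart, with no means subtracted, P2ry12 with P2ry13 was at 0.53, 0.19 and 0.47. By the same measure P2rx4 with P2rx7 was at 0.04, 0.35 and -0.02. These are descriptions over cells of the same libraries, in which depth and the number of detected genes are shared, and rho with the number of detected genes was 0.18 for P2ry12 and 0.46 for P2ry13.

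**Figure D5:**
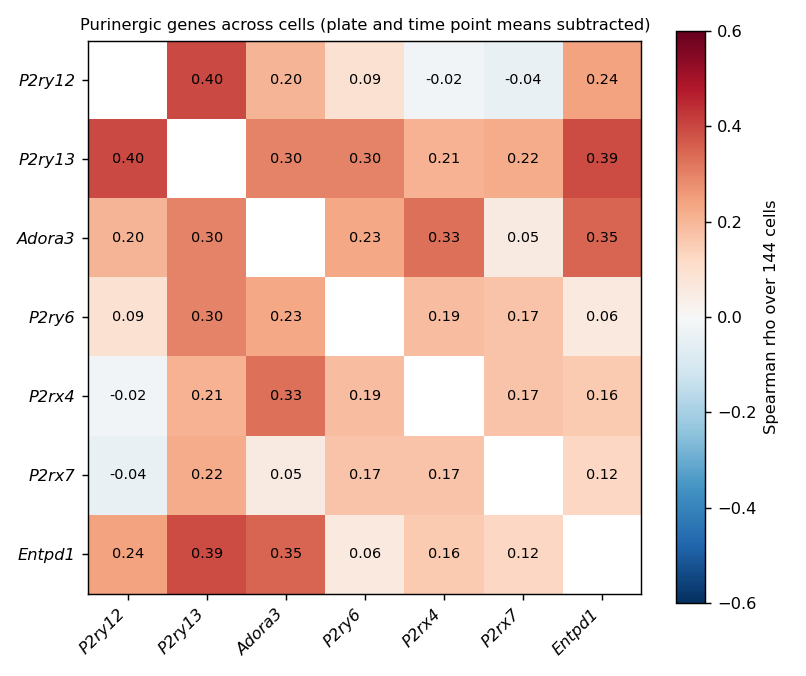
Spearman rho between purinergic genes over all cells after the mean of each plate and time point was subtracted, on a colour scale from -0.6 to 0.6. P2ry12 with P2ry13 (0.40) and P2ry13 with Entpd1 (0.39) are the highest values, and P2ry12 with P2rx4 (-0.02) and P2rx7 (-0.04) are near 0.

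Among 2255 genes at 1 FPKM or more in at least 30% of cells, the genes most like P2ry12 over cells by the same measure were Tmem119 (rho 0.62), Selplg (0.51) and Siglech (0.50). Tmem119, a surface protein used as a microglial marker, differed less at day 4. Its mean was 560 FPKM at day 4 and 700.3 FPKM in untreated cells, and its mean of log2(FPKM + 1) differed by 0.49, against -0.62 for P2ry12. The plates were split for Tmem119, with 1.21, 2.08 and -1.82. Siglech, a microglial lectin, differed by -0.68 with -0.51, 0.76 and -2.29 in the plates.

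The genes most like P2ry6 were Fos (0.47), Junb (0.47) and Mir142hg (0.46). Fos and Junb are immediate-early genes that can rise when tissue is taken apart. The summed level of 10 dissociation genes had a median of 8976 FPKM in untreated cells, 5772 FPKM at day 2 and 6944 FPKM at day 4, with at least 3 of them at 20 FPKM or more in 36, 43 and 33 cells, and their part in the P2ry6 values was not tested. The genes most like P2ry13 were Junos, Mir142hg and Txnip, each at 0.56. For P2rx4 they were Lpar6 (0.51), Rb1 (0.49) and Ncoa3 (0.45), for P2rx7 Cd302 (0.40), C3ar1 (0.39) and Mrpl41 (0.38), and for Adora3 Nrbp1 (0.45), Csf3r (0.40) and Pik3r1 (0.39). For Entpd1 they included Pfkfb3 (0.42) and Mat2a (0.41).

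Other receptors and enzymes of the system were scarce in these cells. Of 6 other P2Y receptors 0 were measured, of 5 other P2X channels 1 (P2rx1), of 3 other adenosine receptors 0, and of 7 other ecto-nucleotidases 0. P2rx1 was at 20 FPKM or more in 14 cells. Nt5e, which encodes the enzyme that turns AMP into adenosine, was listed at 0 in the cells of each time point, as were Adora2a and P2ry1. These zeros are of a table without counts and do not show that a gene was off.

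Of 60 further genes of purine handling and of receptor signalling 27 were measured. At day 2 against untreated cells 0 of 27 passed the size rule, where 3.89% of measured genes were higher and 0.0576% lower. At day 4 against untreated cells 3 of 27 were higher and 0 lower, where 18.9% of measured genes were higher and 0.346% lower. The 3 were Pycard, the inflammasome adaptor (2.20), Pnp, which breaks down inosine and guanosine (1.92), and Gnai3, an inhibitory G protein subunit (1.42). At day 4 against day 2 Pnp (1.29), Pycard (1.22) and Kcnk6, a potassium channel (1.03), were higher and 0 were lower. Among measured genes 9.57% were higher and 0.864% lower in that comparison. Of the Pnp values 97.2% and of the Pycard values 50.7% were not whole reads, so both are uncertain. Among the 8 measured partners of P2Y12 the median difference at day 4 against untreated cells was 0.49. Beside Gnai3, Kcnk6 differed by 0.83, Itgb1, an integrin subunit, by 0.71, most of it in plate 2 (2.03), and Pik3cg, a lipid kinase, by 0.63. Among the 8 measured genes downstream of the channels the median was 0.42. Beside Pycard, the inflammasome sensor Nlrp3 differed by 0.86 and was higher in 3 of 3 plates, as 43.4% of measured genes were. The transcription factor Irf5 differed by 0.55 and the cytokine Il1b by 0.50. Among the 7 measured genes of P2Y6 signalling the median was 0.21 and 0 passed the rule. The G protein subunit Gnaq differed by 0.57, the phagocytic receptor Mertk by 0.42 with 2.85, 0.85 and -2.43 in the plates, the G protein subunit Gna11 by -0.40 and the phospholipase Plcb3 by 0.22. Of the nucleoside transporters Slc29a1 differed by 0.79 with -1.49, 1.99 and 1.86 in the plates, and Slc29a3 by 0.39.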

How the data were processed

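RNA of single Iba1-EGFP retinal cells (54 untreated, 54 at day 2, 36 at day 4, on 3 plates) was amplified and tagmented, per the labels' protocols, which mention no molecular identifiers. The authors deposited FPKM values. Per the submitters' processing notes the builds were GRCm38.p6 and mm10, and the tools named were featureCounts 1.6.1, STAR 2.7.2b, Trimmomatic 0.36, cutadapt 1.16 and Trim Galore 0.4.4, with options not given in the sources used here. FPKM times gene length summed to 1e+09 in each cell. Depth (0.190 to 18.9 M reads; M, 1e+06) came from the value of 1 read. A median of 59.3% of values were whole reads within 0.01 read (49.0% to 69.0%), so no count model was fitted.

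The 7 genes and the lists of related genes were chosen with earlier results of these data known. Named genes were the 7, those of each list past the size rule with up to 4 differences of day 4 from untreated cells that were largest in size, and the 3 most alike genes of each of the 7. The row of highest mean stood for a repeated symbol. Comparisons used log2(FPKM + 1), pseudocount 1, averaged over cells, pooled and within plates, in Python 3.11.15 with numpy 2.4.6, pandas 2.3.3 and scipy 1.17.1. Each time point is 1 sample, so no p-value was computed, and SDs and Clopper-Pearson intervals describe cells and counting error only. The differences and the depth step were checked on simulated data. The simulated cells varied about a common profile, with no plate differences and no split into high and low values. That check therefore does not show how the size rule behaves with the wider spread of these cells. Alternatives were other pseudocounts and scales, centring, plates, depth, detected genes, cells with other markers and each cell left out in turn. Strand was not used. Exon overlaps came from the deposited positions. P2ry6 had no promoter entry. One gene named by the likeness rule is not reported here.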

Additional observations from a re-analysis of the deposited data

How the results depend on the processing

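The count of 1 gene higher at day 2 against untreated cells, P2rx4, was 0 with a pseudocount of 10, on the log2 of the mean FPKM + 1 (with or without its median subtracted), with the median of measured genes subtracted, without plate 2, with gene detection as a covariate, without cells holding markers of other types, and at a difference of 1.5. It was 2 without plate 1, where P2ry6 joined. The count of 0 lower in that comparison was 1, P2ry13, on the log2 of the mean (with or without its median subtracted), with the median subtracted, without plate 2, with gene detection as a covariate, on the 75th percentile, and at a difference of 0.5. The count of 0 lower at day 4 against untreated cells was 4 on the log2 of the mean (with or without its median), 3 with gene detection as a covariate (P2ry12, P2ry13 and Entpd1), 2 on the 75th percentile, and 1, P2ry12, with the median subtracted or at a difference of 0.5. The count of 1 lower at day 4 against day 2, P2rx4, was 0 with a pseudocount of 10, without plate 3, without cells holding other markers and at 1.5, 2 on the log2 of the mean and on the 75th percentile, and 3 with the median of the log2 of the mean subtracted. The motility minus channel balance at day 2 against untreated cells, -1.06, was -0.70 with a pseudocount of 10, -0.68 on the log2 of the mean and -0.69 without cells holding other markers. The cause was not tested in any of these cases. No called difference changed sign in the alternatives run, but only those of P2rx4 and of the day 2 balance were called. Others did change sign. P2ry12 at day 2 against untreated cells, -0.14, was at 0.08 without plate 1. P2rx4 at day 4 against untreated cells, 0.02, was at -0.67 with gene detection as a covariate. Of 273 differences of single genes 245 moved by less than the SD of the 3 plate values and 28 by more. This count is no measure of stability. Weighting plates equally repeats the main values, since each time point has equal numbers of cells in its plates. The SD of the plate values was also wide for some genes. For P2ry6 at day 2 it was 1.69, so that a move from 0.38 to -0.40 without plate 3 counts as less. Of 42 shares of cells recomputed at 1 FPKM or after thinning 35 left the interval of the share at 20 FPKM, and of 21 rho values 4 moved by more than their SD over time points when no means were subtracted.

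With no filter on low values 55254 genes replace the 8679, and 0.614%, 3.00% and 1.52% of them were higher in the comparisons of day 2 and day 4 with untreated cells and of day 4 with day 2. Thinning to 2000000 reads was done in the 50 untreated, 45 day 2 and 36 day 4 cells that had as many. The other 4 untreated and 9 day 2 cells were left out. In 100% of the thinned cells of each time point 5 reads or more of P2ry12 were left, a level within the low values described above. No paired analysis was possible because the labels tie no cell of a time point to a cell of another.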
